A study of Mus musculus with 42 samples.

Results

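RNA of liver was sequenced before and after the immunoprecipitation of tagged ribosomes, with libraries made by the NuGEN Ovation RNA-Seq System V2 from 4 ng of RNA. The 6 NuGEN libraries described here, of 42 in the series, come from 3 untreated mice with the genotype Gfi1Cre/+;Rpl22HA/HA. Each mouse gave 1 input library, made from total RNA of the homogenate, and 1 IP library, made from RNA on the ribosomes that an anti-HA antibody pulled down. The methods and the growth protocol give the age of these mice as P30, while the sample characteristics give P1. In the methods P1 is the age of the animals used for immunostaining. No comparison here uses the age. Liver tissue was used without separating its cells, no mouse without Cre or without the tag was analysed here, and RNA that comes down without a tagged ribosome was therefore not measured.

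The RiboTag allele replaces an exon of Rpl22, a protein of the large ribosomal subunit, with an HA-tagged copy once Cre has acted, so that ribosomes and the mRNA on them can be pulled out of a mixed tissue. Cre is expressed here from the locus of Gfi1, a zinc finger repressor of blood cell development, and a recombined allele stays recombined in all descendants of a cell, whether or not they still express Gfi1. Liver is mostly hepatocytes by mass, which make albumin and most other plasma proteins. It also holds Kupffer cells, the resident macrophages of the sinusoids, with endothelial cells, stellate cells and blood cells.

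The labels of replicate 3 are in doubt. The exchange used here follows the number of detected features that the study tabulates for each library. Input below therefore means the libraries labelled input 1, input 2 and IP 3, and IP means those labelled IP 1, IP 2 and input 3. Both libraries of replicate 3 came from an animal that differed from the other two in the X-linked Xist and the Y-linked Ddx3y, so the exchange lies within 1 animal. Xist was at 628 and 1417 normalised CPM, counts scaled to library size, in the libraries labelled IP 3 and input 3, and between 2.91 and 6.11 in the other 4. Normalised CPM are CPM divided by the TMM factor, which is the scaling edgeR derives from the bulk of genes.

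A check that does not use the detected features is the direction of the exchanged pair in genes called from mice 1 and 2 alone. Without replicate 3, edgeR called 4598 of 12874 genes (35.7%) at an adjusted p under 0.05, 2559 higher and 2039 lower in IP. In the exchanged pair of mouse 3, 2502 of those 2559 genes (97.8%) were also higher and 1978 of the 2039 (97.0%) were also lower. With the labels as deposited, the 6 libraries gave no call (0 of 12406 genes, 0%, edgeR), with 91 genes at an unadjusted p under 0.05. A blocked fit on the mouse also gave 0 with the labels as deposited, and 14 genes at an unadjusted p under 0.05.

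**Figure D1:**
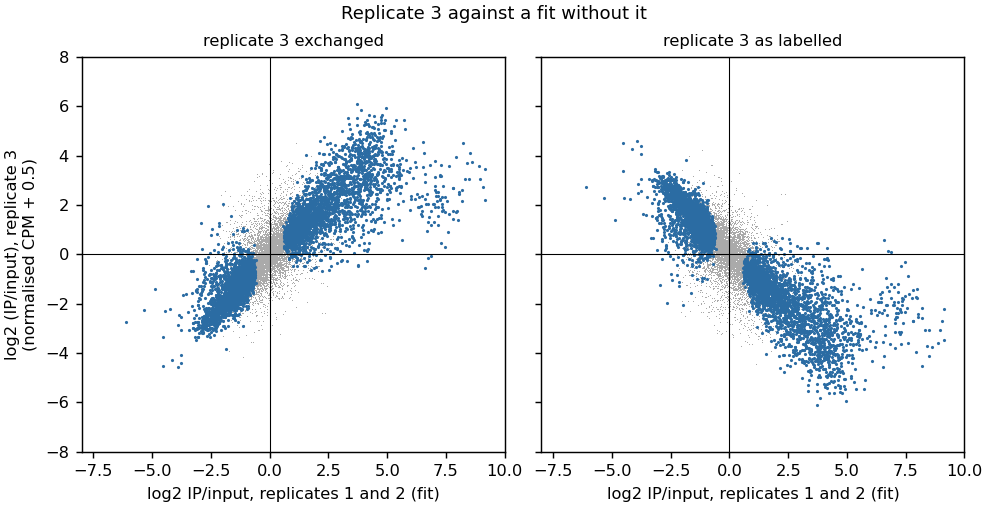
Log2 ratio of IP to input in replicate 3 (vertical axis, normalised CPM plus 0.5) against the log2 fold change fitted from replicates 1 and 2 (horizontal axis). Each point is a gene and blue points passed the test without replicate 3; with the pair exchanged 97.8% of the higher genes lie above 0, and with the pair as labelled the cloud is turned over.

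The input libraries held 7482819, 7615866 and 5529417 counts on the exons of 47729 genes. The IP libraries held fewer, 5141329, 5319712 and 3223153. At 3 counts, the smallest value taken as a floor, this depth resolves 0.394 to 0.931 CPM before TMM scaling. Libraries of one fraction correlated with each other over genes at a Spearman rho of 0.903 to 0.913 and libraries of different fractions at 0.882 to 0.897. No pair of libraries agreed within sampling noise (chi-square over degrees of freedom of 7.31 or more).

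The promoters of 3 genes that mark the cells at the extremes of the comparison are shown first. Alb, which encodes serum albumin, marks hepatocytes and was among the genes lowered in IP. C1qc, which encodes a chain of complement C1q, marks Kupffer cells, and Hbb-bs, an adult beta-globin gene, marks red cells, and both were higher in IP. Each window runs from 250 bases before to 50 bases after the RefSeq start on GRCm38.p6, written 5′ to 3′ on the strand of the gene. Capitals mark matches to the letters of known motifs: CCAAT, on either strand, in Alb, the PU.1 motif GAGGAAGT read on the opposite strand in C1qc, and the GATA motif AGATAAG, the CACCC box CCACACCC and CCAAT in Hbb-bs. Some list members were left out beforehand by their chromosome. Each gene was chosen by its normalised CPM among the remaining genes of its list whose window already held a motif set for that list. That motif was CCAAT for hepatocytes, PU.1 for Kupffer cells, and GATA or the CACCC box for red cells. A match to it was therefore fixed by the choice.
Alb, chr5:90460620-90460919, plus strand: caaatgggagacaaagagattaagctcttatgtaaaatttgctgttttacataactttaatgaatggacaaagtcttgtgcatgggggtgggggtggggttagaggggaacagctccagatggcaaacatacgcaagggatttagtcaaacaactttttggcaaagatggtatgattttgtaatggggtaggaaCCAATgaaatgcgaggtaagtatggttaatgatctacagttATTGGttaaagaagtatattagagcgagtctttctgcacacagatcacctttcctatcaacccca
C1qc, chr4:136892865-136893164, minus strand: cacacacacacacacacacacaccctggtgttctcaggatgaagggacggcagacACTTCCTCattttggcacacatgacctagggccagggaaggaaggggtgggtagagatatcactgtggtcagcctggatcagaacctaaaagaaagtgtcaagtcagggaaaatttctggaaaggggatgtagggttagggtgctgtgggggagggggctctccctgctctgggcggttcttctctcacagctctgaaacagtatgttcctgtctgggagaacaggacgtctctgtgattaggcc
Hbb-bs, chr7:103827879-103828178, minus strand: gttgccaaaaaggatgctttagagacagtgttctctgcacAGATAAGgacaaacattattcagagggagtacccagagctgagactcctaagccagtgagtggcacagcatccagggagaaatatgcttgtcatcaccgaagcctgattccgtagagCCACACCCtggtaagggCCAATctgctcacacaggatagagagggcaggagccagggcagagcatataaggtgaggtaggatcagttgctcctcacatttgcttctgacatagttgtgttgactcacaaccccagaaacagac
PU.1 (Spi1) is a transcription factor of macrophages and B cells, and GATA1 and the CACCC-binding KLF1 act in red cell precursors. The letters lie 56 and 15 bases before the start in Alb, 195 before it in C1qc, and 210 (GATA) and 93 (CACCC) before it in Hbb-bs. Over 9061 windows of tested genes, searched on both strands, GAGGAAGT was in 3.32%, against 11.3% of the 300 windows of genes at least 16-fold higher in IP and 1.82% of the 384 at least 4-fold lower. AGATAAG was in 2.01% of tested windows, in 5.33% of the former and in 4.69% of the latter. CCACACCC was in 3.79%, 4.33% and 3.65%, and CCAAT in 38.6%, 32.3% and 43.0%. These shares describe letters in a fixed window and were not tested, and windows of near-identical genes are not independent.

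What the NuGEN libraries counted differed between the fractions before any single gene was considered. Mitochondrial rRNA, the products of mt-Rnr1 and mt-Rnr2, took 50.5 ± 0.336% of input counts and 9.09 ± 3.54% of IP counts (SD, n = 3). With the other mitochondrial genes, the mitochondrial share was 57.6, 58.4 and 59.0% in the input libraries and 15.6, 9.23 and 10.1% in the IP libraries. Mitochondria translate their own transcripts on their own ribosomes, which do not contain Rpl22. Nuclear protein-coding genes took 39.8 ± 0.673% of counts in input and 82.8 ± 5.15% in IP, so at equal depth an IP library read this class 2.08 times as often. Nuclear rRNA was a minor class in both fractions, at 0.222 ± 0.0538% in input and 1.49 ± 1.53% in IP, and IP 1 alone stood at 3.25%.

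The groups did not overlap in any of these classes, and the two-sided exact permutation test of 3 against 3 libraries gave p = 0.1 for each, the smallest it can give. Adult hemoglobin genes went from 0.0602 ± 0.00552% of counts in input to 2.29 ± 0.571% in IP. Alb alone was 5.13 ± 0.0909% of input and 2.05 ± 0.109% of IP. The 10 genes with the most counts held 63.3 to 65.6% of an input library and 14.7 to 23.7% of an IP library. A gene with at least 1 read was found 16946, 16458 and 15624 times in input and 17715, 17841 and 18198 times in IP, in spite of the lower IP totals. The exchange of replicate 3 was read from such feature numbers, so they are given here with no test as support.

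**Figure D2:**
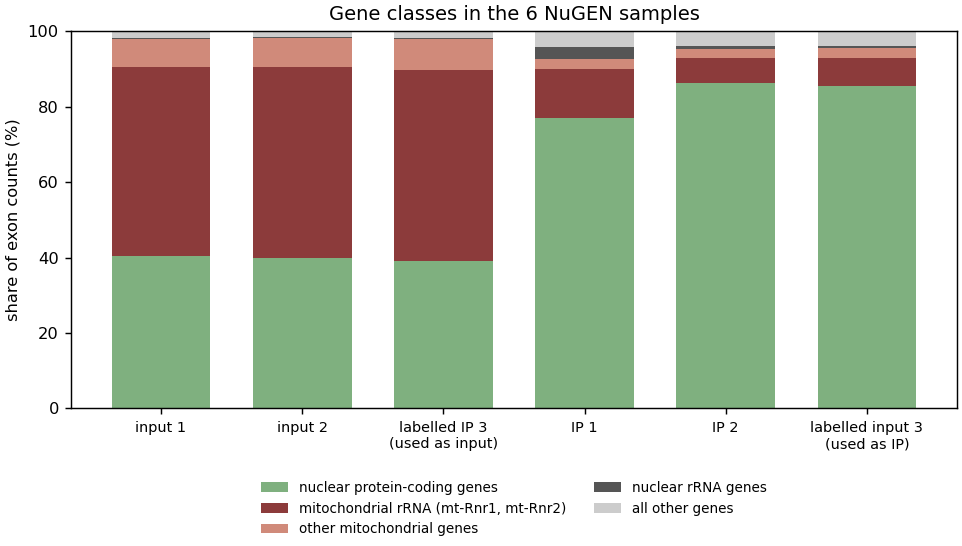
Share of exon counts (vertical axis, %) on 5 gene classes in each of the 6 NuGEN libraries, with the libraries of replicate 3 placed by the exchange. Mitochondrial genes fill 57.6 to 59.0% of the input bars and 9.23 to 15.6% of the IP bars.

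In the libraries made from the same fractions with protocols that start from the poly(A) tail, the mitochondrial share was far smaller. It was 3.62 ± 0.433% in input and 0.414 ± 0.0465% in IP for TruSeq with 70 ng of RNA (TruSeq70), and 3.60 ± 0.340% and 0.833 ± 0.162% for SMART-Seq v4 with 4 ng (SMARTseq4). Hemoglobin genes took 17.2 ± 4.90% of the TruSeq70 IP counts and 15 ± 2.69% of those of SMARTseq4. NuGEN first-strand cDNA is primed both by oligo-dT and by further primers along the transcript, so that RNA without a poly(A) tail is copied too. Reads outside annotated exons made up 11.0 ± 1.14% of the NuGEN input reads that the counting accounted for and 26.7 ± 0.854% of the IP reads.

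The main comparison asked which genes lie on tagged ribosomes more, or less, than in the whole liver. IP was depleted of hepatocyte transcripts and of mitochondrial transcripts and enriched in those of macrophages and red cells. Of 12406 genes tested with edgeR, 5569 (44.9%) passed, 2979 higher (24%) and 2590 lower (20.9%) in IP. The groups did not overlap in 54.5% of the genes tested. The median log2 fold change was 1.84 among the higher genes and -1.37 among the lower ones, and the median of all genes tested was 0.02. The change upwards reached further, with 1349 genes at least 4-fold higher and 539 at least 4-fold lower, and 393 against 5 at 16-fold. The filter has a part in this balance. In 3183 tested genes the read minimum of the test (1.85 CPM) was reached in every IP library but not in every input library, which favours a rise. Among the 8789 genes that reached it in every input library, 1742 were higher and 2517 lower. That set is chosen by input alone, which in turn can favour a fall, so neither balance is free of the choice. In bulk RNA, fewer cells of a type and less RNA per cell cannot be told apart.

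Leaving the 391 rRNA and mitochondrial genes out of the scaling changed little. It gave 5551 calls (44.7%), 2957 higher and 2594 lower, of which 5539 were shared with the first fit and none had the opposite sign. For single genes, the log2 fold change of the first fit minus that of the second was -0.0085 to 0.02. Dividing by the total count alone, with no TMM factor, moved the median of all genes to 1.60 and gave 9064 higher and 328 lower calls. With the total taken without rRNA and mitochondrial genes, the median was 0.54 and the calls were 4647 higher and 1394 lower. Directions below are relative to the bulk of genes.

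The ratio of CPM within each mouse, which carries no TMM factor, showed the same dependence. Among genes with at least 20 input reads, 5399 ± 221 per mouse had a ratio of 2 or more and 281 ± 83.3 a ratio of 0.5 or less. With the rRNA and mitochondrial genes out of the totals, these counts were 2275 ± 89.4 and 1325 ± 198. As a second readout, the RPKM values deposited by the authors ranked the changes like the counts did, at a Spearman rho of 0.915 over 12117 genes. Of the called genes among them, 98.0% had the same sign relative to the median RPKM ratio.

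Gfi1 and Rpl22, the genes of the driver and of the tag, are not a strong check at this depth. Gfi1 had 0 reads in each input library and 2, 4 and 11 reads in IP 1, IP 2 and the library labelled input 3. Against a floor of 3 reads over the input group this is at least 2.89-fold higher, and the gene was too low to be tested. The bound rests on the library labelled input 3: without it 6 IP reads are left and the bound is 1.35-fold, and without mouse 3 it is 1.01-fold. Rpl22 was at 47.0, 41.2 and 52.5 normalised CPM in input and 46.2, 21.8 and 17.0 in IP, groups that overlap (log2 fold change -0.72 ± 0.31 SE, adjusted p = 0.0752, edgeR). With the mouse as a block the value was -0.83 (adjusted p = 0.00636), and without IP 1 it was -1.28 (adjusted p = 0.00114). The counts do not separate the tagged from the untagged transcript.

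Hepatocyte transcripts fell almost without exception. Alb stood at 85552, 90161 and 91705 normalised CPM in input and 11990, 12202 and 11540 in IP, a log2 fold change of -2.90 ± 0.19 (adjusted p = 5.88e-08). Ttr, which encodes the thyroid hormone carrier transthyretin, went from 5479, 6798 and 6308 to 853, 932 and 849. Hepatocyte RNA was thus lower in every IP library and still abundant there.

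Of the 18 hepatocyte markers 17 were lower and none was higher, with a median log2 fold change of -2.26. The exception was G6pc, the last enzyme of glucose release, at -0.05 ± 0.26 (adjusted p = 0.888). All 32 secreted plasma proteins and all 21 cytochrome P450 genes listed were lower, with medians of -2.51 and -2.29. Cyp1a2, which oxidises caffeine and other xenobiotics, fell by 2.96 on the log2 scale, and Cyp2e1, which oxidises ethanol, fell by 2.75. Hnf4a, the nuclear receptor that maintains hepatocyte identity, was at 414, 363 and 380 in input and 125, 121 and 129 in IP, a smaller fall of 3.09-fold.

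Liver metabolism followed. Of 20 urea cycle and amino acid genes 19 were lower (median -2.09), with Cps1, the first enzyme of the urea cycle, at -2.07 ± 0.24. Of 12 genes of glucose and glycogen metabolism 11 were lower, and of 22 genes of cholesterol synthesis 21. Scd1, a lipogenic desaturase, was an uneven case, at 4710, 6830 and 28687 in input and 1715, 2095 and 8684 in IP. Both libraries of mouse 3 were the highest of their fraction, the groups overlap, and the fall by 1.69 had an adjusted p of 0.0461, which was lost without mouse 2 (0.127) and without any single IP library (0.129 to 0.484).

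Kupffer cell transcripts rose, all 16 of the 16 listed, with a median log2 fold change of 4.09. Clec4f, a lectin restricted to Kupffer cells, was at 114, 112 and 103 normalised CPM in input and 1594, 1724 and 1412 in IP (3.84 ± 0.19, adjusted p = 1.36e-08). Csf1r, the receptor for macrophage colony-stimulating factor, was at 47.9, 49.3 and 34.4 against 797, 1255 and 883. Neither pair of groups comes near to overlapping. The summed level of the list was 688 ± 27.6 in input and 9486 ± 1628 in IP.

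Not all members moved alike. Slc40a1, the iron exporter ferroportin, which other liver cells also express, rose by 2.77 ± 0.19. The 3 chains of C1q, which lie side by side on chromosome 4 and are assembled into 1 protein, were unequal. C1qb rose from 46.5, 47.0 and 44.9 to 682, 892 and 769 (4.08 ± 0.20) and C1qc by 3.83 ± 0.26, while C1qa rose from 26.4, 26.2 and 24.3 to 74.7, 81.2 and 61.2 (1.5 ± 0.19). C1qa was the smallest rise of the list.

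**Figure D3:**
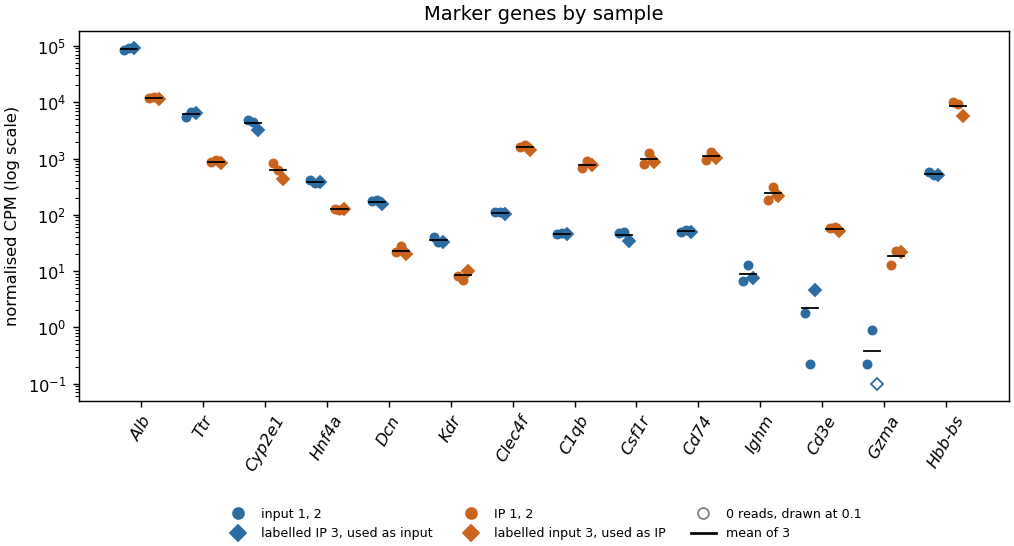
Normalised CPM (vertical axis, log scale) of 14 marker genes in each NuGEN library, input in blue and IP in orange, with the exchanged libraries of replicate 3 as diamonds and the mean of 3 as a bar. Alb, Ttr, Cyp2e1, Hnf4a, Dcn and Kdr lie lower in IP and the macrophage, lymphocyte and red cell genes higher, and open symbols stand for 0 reads.

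For other blood cells many listed genes were near 0 in input. A gene that reached the read minimum of the test (1.85 CPM) only in the IP libraries had to be higher there, so the counts of the next lists are given for the genes that reached it in every input library, and no median over the tested genes is read. Of all genes tested 8789 did so, and of these 1742 were higher and 2517 lower. A choice by input alone can favour a fall. Of 12 monocyte and dendritic cell genes 5 reached the minimum in input, and these 5 were higher. One of the 12 is Cd74, the chaperone of MHC class II, at 49.2, 53.4 and 50.5 in input and 933, 1331 and 1007 in IP. Ccr2, the chemokine receptor of monocytes that enter tissue, was at 2.01, 0.226 and 0.656 in input and 62.5, 60.9 and 38.7 in IP. Of 14 B cell genes 2 reached the minimum in input and both were higher. Ighm, the constant region of IgM, was at 6.71, 12.7 and 7.54 against 184, 317 and 218.

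Of 16 tested T cell genes 1 reached the minimum in input and did not pass the test. Cd3e, part of the T cell receptor complex, was at 1.79, 0.226 and 4.59 in input and 58.1, 60.2 and 52.4 in IP. None of the 11 tested NK cell genes reached it in every input library. Gzma, a granule protease, was at 0.224, 0.905 and 0 against 12.8, 22.4 and 21.5. Of 16 neutrophil genes only 8 had enough reads to be tested, none of which reached the minimum in every input library. S100a9, a calcium-binding protein of granulocytes, was at 0.447, 1.13 and 0.328 against 35.6, 22.3 and 26.3. The 4 tested megakaryocyte and platelet genes and the 1 tested mast cell and basophil gene did not reach it in every input library either. Of 6 stem and progenitor genes 3 reached it in input, of which none was higher and 1 was lower.

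Red cell transcripts rose as well. Hbb-bs was at 565, 507 and 504 in input and 10227, 9241 and 5789 in IP (4.00 ± 0.24), the library labelled input 3 being the lowest of the IP group. The alpha-globin genes Hba-a1 and Hba-a2 rose by 3.0 ± 0.24 and 3.17 ± 0.24. They are nearly identical in sequence, so that the split of reads between them is uncertain. Of 11 tested erythroid genes 7 reached the minimum in input, and 6 of these were higher (median 3.17 over the 7).

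Gata1, the factor of red cell precursors, had 1 read over the 6 libraries, and Mki67, a gene of dividing cells, rose by 1.5 ± 0.25. Of 17 cell cycle genes that reached the minimum in input, 8 were higher and 1 lower (median 0.88).

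Of 14 tested blood transcription factors 5 reached the minimum in input. Of these 3 were higher and 1, Cebpa, a factor that hepatocytes also use, was lower (-1.19), with a median of 1.08 over the 5. A further 9 reached it in every IP library but not in every input library. Spi1 (PU.1), under the minimum in input 2 before TMM scaling, was at 4.03, 2.49 and 5.25 in input and 51.9, 53.8 and 48.8 in IP. Among all 14, Ikzf1, a factor of lymphoid development, rose by 4.60 ± 0.29. Of 15 genes of the interferon response that reached the minimum in input, 10 were higher and none lower (median 1.15). The list holds Oas3, a sensor of double-stranded RNA, at 4.34 ± 0.33.

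Endothelial and stellate cell transcripts fell less than those of hepatocytes. Of 16 endothelial genes 11 were lower and 2 higher (median -1.18). Kdr, the receptor for vascular endothelial growth factor, was at 40.9, 33.2 and 32.5 in input and 8.33, 6.84 and 10.03 in IP, whereas Cdh5, the cadherin of endothelial junctions, went from 44.7, 45.2 and 49.5 to 199, 358 and 257. Markers of one cell type thus moved in opposite directions, and Cdh5 passed the test in its own direction (2.55 ± 0.22).

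Of 13 stellate cell and fibroblast genes 9 were lower and only Hgf, a growth factor for hepatocytes, was higher (median -0.91). The endothelial and the stellate medians turn positive when libraries are divided by the total count alone. Dcn, the matrix proteoglycan decorin, fell by 2.89 ± 0.19. Of the 5 tested genes of bile duct cells, 1 fell and none rose (0 fell without mouse 3). Of 22 tested complement genes 15 were lower and 6 higher. C3, the central component, fell by 2.74, while the 3 C1q chains, Cfp (properdin), C6 and the receptor C5ar1 rose.

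**Figure D4:**
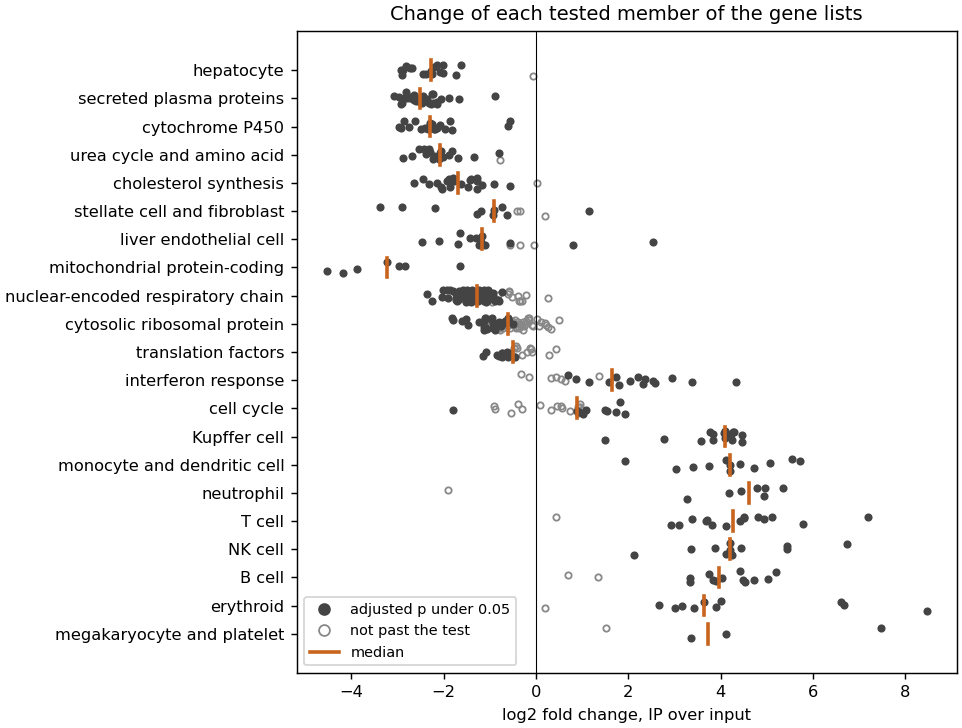
Log2 fold change of IP over input (horizontal axis) for each tested member of 21 gene lists. Filled points passed the edgeR test at an adjusted p under 0.05, open points did not, and the bars are medians, at -3.23 for the mitochondrial protein-coding genes and 4.09 for the Kupffer cell genes. Most tested lymphocyte, neutrophil and platelet genes reached the read minimum in the IP libraries only, so the medians of those lists are not read.

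All 7 tested mitochondrial protein-coding genes were lower, with a median of -3.23. mt-Nd2, a subunit of complex I, was at 9857, 11275 and 10501 in input and 495, 422 and 456 in IP, and its log2 fold change of -4.53 ± 0.20 was the lowest among all called genes. mt-Nd1, another subunit of complex I, fell least, by 1.64. The mitochondrial rRNA genes mt-Rnr1 and mt-Rnr2 fell by 4.12 and 3.96.

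Respiratory chain subunits encoded in the nucleus, which are translated on cytosolic ribosomes, also fell, 68 of 82 tested and none higher, with a smaller median of -1.27. Cyc1, a subunit of complex III, was at -2.24 ± 0.20. Of 69 tested genes of cytosolic ribosomal proteins 26 were lower and none higher (median -0.61). Of 22 translation factors 10 were lower and none higher, beside 20.9% lower and 24% higher over all genes tested. Without mouse 2 these counts of lower genes were 16 and 3, and without mouse 3 they were 15 and 6. With the total taken without rRNA and mitochondrial genes, 5 ribosomal protein genes were lower and 2 higher, and 2 translation factors were lower and 2 higher. Divided by the total count alone, the medians of these 3 lists turn positive, while that of all genes rises to 1.60, and they stay below it. The median of the ribosomal protein list was 0.14 in TruSeq70 (1 higher and 8 lower of 81) and 0.22 in SMARTseq4 (11 higher and 8 lower of 84). The test of the difference from NuGEN, described below, called 0 of 83 of these genes against TruSeq70 (0.279% of all genes). Against SMARTseq4 it called 13 of 84, each with the smaller value in NuGEN (3.08% of all genes). The respiratory chain medians in TruSeq70 and SMARTseq4 were -0.68 and -0.82, and those of the translation factors -0.43 and -0.25.

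Reference genes moved in both directions. Of 11 tested, 3 were higher and 3 lower, near the shares of all genes tested (24% higher and 20.9% lower). Actb, cytoplasmic actin, was at 378, 341 and 380 in input and 1666, 1955 and 1725 in IP (2.28 ± 0.18), and Pgk1, a glycolytic enzyme, fell by 2.19. Gapdh was at 3.11 normalised CPM or less in every library, too low to be tested. The study removed reads that mapped to several features, so a low count here need not mean low expression. How far this lowered Gapdh was not tested.

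The genes at either end were taken by rule, among called genes with a mean of at least 10 CPM and the same direction in every mouse. Among the 12 with the highest fold were Scimp, Gdpd1, Il2rb, Ccr2, Pira2, Itgam, Ifitm6, Clec10a, Mmp13, Themis2 and Gzma. They include a chain of the interleukin-2 receptor (Il2rb), an integrin of myeloid cells (Itgam) and a lectin of macrophages and dendritic cells (Clec10a). In Scimp, Gdpd1, Pira2 and Ifitm6 the input libraries held 2 or 3 reads in all, so the size of the rise is loose. For Scimp the ratio was 82.1 with an exact 95% interval of 22.5 to 681, which covers counting error only.

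The 12 with the lowest fold were mt-Nd2, mt-Cytb, mt-Rnr1, mt-Rnr2, mt-Co1, Tm7sf2, Gm5424, Slc39a4, mt-Nd4, Amy1, mt-Tp and C8b, so that 7 of the 12 lie on the mitochondrial genome. Tm7sf2, an enzyme of cholesterol synthesis, was at 46.5, 49.5 and 53.1 in input and 2.66, 4.27 and 8.65 in IP. C8b, a chain of the terminal complement complex, fell by 3.15.

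Among the 15 genes with the most counts, mt-Rnr2 was at 456044, 473116 and 499690 in input and 45795, 22542 and 23433 in IP. CT010467.1, annotated as rRNA, rested on 1 library, at 4402, 2779 and 4391 in input and 20178, 4142 and 2801 in IP (adjusted p = 0.0752). Its log2 fold change was 1.23, 0.70 with the mouse as a block (adjusted p = 0.0411), and -0.16 without IP 1. Apob, the main protein of liver lipoproteins, was at 3144, 2665 and 2927 in IP after 14648, 13444 and 14191 in input.

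Transcript length was related to the change. The median log2 fold change was -0.46 for the 28 protein-coding genes with a longest transcript up to 0.5 kb, -0.56 for 356 genes from 0.5 to 1 kb, 0.06 for 10466 genes from 1 to 10 kb and 0.47 for 286 genes above 10 kb. Of the last, 113 were higher and 27 lower. TruSeq70 gave medians of -0.05, 0.06, -0.00 and 0.03 for the same classes and SMARTseq4 0.14, -0.10, -0.01 and 0.88. Over 11136 genes the Spearman rho of length and change was 0.221, a description across genes, which are not independent replicates. Ribosomal protein and respiratory chain transcripts are short, and the part of length in their change was not tested.

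The last question was how far the NuGEN change differed from that of other protocols on the same RNA. TruSeq70 started from 70 ng against 4 ng. Its libraries held more counts than those of NuGEN, with means of 3.06e+07 in input and 2.96e+07 in IP. Protocol, amount and depth therefore cannot be told apart in that comparison. SMARTseq4 libraries were deeper too, with means of 2.61e+07 in input and 1.71e+07 in IP. Of the genes higher in NuGEN IP and tested in TruSeq70, 94.5% of 2915 had the same sign there, and of the lower ones 95.8% of 2578. For SMARTseq4 these shares were 97.4% of 2953 and 95.7% of 2575. A test of the difference itself, the interaction of protocol and fraction, called 45 of 16114 genes against TruSeq70 (0.279%), 21 with the larger value in NuGEN and 24 with the smaller. With the mouse as a block it called 155, 66 and 89 in these directions. Without mouse 1, 2 or 3 the number was 23, 10 and 2. Of the 16 genes named here by rule, all passed with the block, and 10, 6 and 1 passed without mouse 1, 2 and 3.

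Changes within a protocol come from a fit of that protocol alone and the differences from a joint fit with its own scaling, so that they do not subtract exactly. Among the smaller values, C1qa rose by 1.5 in NuGEN and by 5.77 in TruSeq70, a difference of -4.35 (adjusted p = 4.24e-07, and the only one of the 16 past the test without any single mouse). Pycard, the adaptor of the inflammasome, differed by -4.83, with 1.32 in NuGEN and 6.10 in TruSeq70. C1qb, beside C1qa in the genome, differed by -1.34, which did not pass (adjusted p = 0.0577) except with the mouse as a block (-1.37, adjusted p = 0.00191). The globin genes differed too, with Hba-a1 at -3.03, Hba-a2 at -2.73, Hbb-bt at -2.46 and Hbb-bs at -2.21. Dnase2a, a lysosomal nuclease, differed by -2.49 and Ccl24, a chemokine for eosinophils, by -2.23.

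The larger values were of several kinds. mt-Nd5 fell by 2.83 in NuGEN and by 5.90 in TruSeq70, a difference of 2.99 (adjusted p = 0.000363), and mt-Nd6, which overlaps it on the opposite strand of the mitochondrial genome, differed by 1.96. By the methods the NuGEN libraries do not keep the strand, so reads on the stretch where this pair overlaps cannot be told apart. Sntb1, a syntrophin of the membrane skeleton, differed by 3.19, and Ppara, the nuclear receptor of fatty acid oxidation, by 2.55, at -0.12 in NuGEN and -2.75 in TruSeq70. Arid5b differed by 2.44, at 1.17 in NuGEN and -1.35 in TruSeq70. A1cf, an RNA-binding protein of apolipoprotein B mRNA editing, differed by 2.24, Bod1l by 1.64 and Ncor1, a nuclear corepressor, by 1.46.

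**Figure D5:**
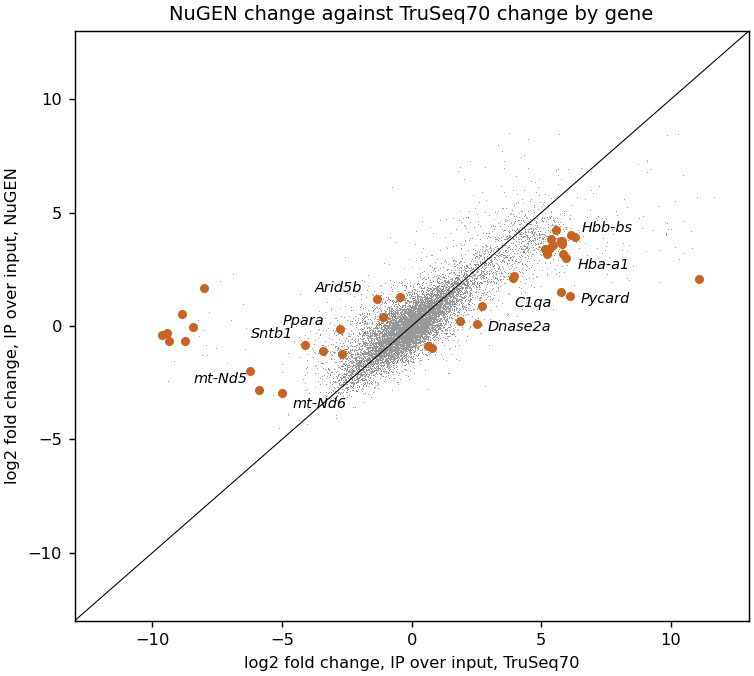
Log2 fold change of IP over input in NuGEN (vertical axis) against TruSeq70 (horizontal axis) for 12020 genes tested in both, with the line of equal change. Orange points mark 40 genes whose difference passed the interaction test; C1qa, Pycard and the globin genes lie below the line and mt-Nd5, Sntb1, Ppara and Arid5b above it.

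Against SMARTseq4, 472 of 15344 genes differed (3.08%), 68 with the larger value in NuGEN and 404 with the smaller. With the mouse as a block the number was 1190, with 249 larger and 941 smaller. This split depended on the scaling: with the rRNA and mitochondrial genes left out of it, 195 genes differed, 81 larger and 114 smaller, and the median difference over all genes was 0.00 in place of -0.17. Without mouse 1, 2 or 3 the test called 7, 4 and 3 genes. C1qa (-4.16, adjusted p = 5.28e-07) and Pycard (-3.88) differed here too, with 5.47 and 5.03 in SMARTseq4. Both comparisons use the same NuGEN libraries, and SMARTseq4 was sequenced at another centre, so protocol and centre cannot be told apart.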

How the data were processed

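The sources name Trimmomatic, the FASTX Toolkit, TopHat on GRCm38 and HTSeq for the step from reads to values. The authors deposited exon counts, whole numbers of reads per Ensembl gene without normalization, and RPKM values, which the authors scaled to gene length and to mapped reads. Libraries were not pooled, and the NuGEN libraries are not strand-specific, by the methods.

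In the 6 NuGEN libraries IP was compared with input by edgeR 4.0.16 (R 4.3.3, TMM, filterByExpr, glmQLFit, glmQLFTest, Benjamini-Hochberg adjusted p under 0.05), with no block for the mouse. The rRNA and mitochondrial genes were left out of the scaling in a second fit, and the difference from TruSeq70 and SMARTseq4 (6 libraries each, as labelled) was tested as an interaction. Samples were grouped by their labels, with replicate 3 exchanged. Libraries with one number come from the same mouse, by the methods; deviations from the group means correlated at 0.0965 to 0.179 between same-numbered libraries and at -0.122 to -0.0173 between others. P-values of the fits without a block measure the spread between libraries of one fraction, which holds differences between these 3 mice and library noise. They do not use the pairing of libraries by mouse, and the interaction takes libraries of one mouse as independent. The procedure was tested on simulated data, and every random draw used the seed 20180. The simulated fractions shared their composition apart from a small share of changed genes, unlike these libraries, so the scaling was not put to the test. Reads on no feature and other closing lines were kept out of library totals. Tables were made in Python 3.11.15 (pandas 2.3.3 and numpy 2.4.6), exact tests with scipy 1.17.1, and plots with matplotlib 3.10.9. Gene biotypes, coordinates and lengths came from GENCODE, for 47310 of 47729 identifiers.

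The samples, lists and members were chosen with earlier results of these data known. Genes are named by a rule: the tag and driver genes, members of the lists, the 15 genes with the most counts, the 12 highest and 12 lowest folds, and the 8 highest and 8 lowest differences from TruSeq70, each with a mean of at least 10 CPM. Some genes and motifs that the rule covers are not reported here. Alternatives were another scaling, DESeq2 1.42.0, other filters, the labels as deposited, a replicate block, and each replicate or library left out. The block with the labels as deposited was added after seeing the data.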

Additional observations from a re-analysis of the deposited data

Results flagged for a closer look

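The change from input to IP differed between protocols in tests of the difference itself, for 45 genes against TruSeq70 and for 472 against SMARTseq4. Among the genes named by rule against TruSeq70, the log2 change in NuGEN minus that in TruSeq70 was negative for Pycard (-4.83), C1qa (-4.35), Hba-a1 (-3.03), Hba-a2 (-2.73), Dnase2a (-2.49), Hbb-bt (-2.46), Ccl24 (-2.23) and Hbb-bs (-2.21). It was positive for Sntb1 (3.19), mt-Nd5 (2.99), Ppara (2.55), Arid5b (2.44), A1cf (2.24), mt-Nd6 (1.96), Bod1l (1.64) and Ncor1 (1.46). Of these 16, C1qa alone stayed past the test whichever mouse was left out.

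Reads outside annotated exons, which no comparison between genes uses, made up 26.7% of the NuGEN IP reads on average, above the level in the input libraries. The groups of 3 libraries are too small for a test of single outlying libraries.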

How the results depend on the processing

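Where libraries are left out, the range over these fits is given. With the labels as deposited the main comparison called 0 genes in place of 5569, the differences from TruSeq70 and SMARTseq4 called 3 and 2, and with the mouse as a block the labelled fractions again gave 0. In that setting the IP minus input difference was -12.99 percentage points for rRNA and mitochondrial genes (-45.4 with the exchange), -14.1 for mitochondrial genes (-46.7) and 12.1 for protein-coding genes (43.0), detected genes differed by -140.7 (1575), and 2846 genes had a ratio of 0.5 or less. Scaling to the total count called 9392 genes, and 4717 and 5563 for the 2 differences, and DESeq2 called 361 and 1104 for these. The replicate block gave 5903 calls, 5919 with rRNA and mitochondrial genes out of the scaling, and 155 and 1190 for the differences. Of the named genes, Rpl22, CT010467.1 and Ncor1 (0.41, adjusted p = 0.0263) gained a call of IP against input under the block and no other changed its call. With rRNA and mitochondrial genes out of the scaling 195 genes differed from SMARTseq4, and out of the totals 2275 genes had a ratio of 2 or more and 1325 of 0.5 or less, which was 146 with 20 reads asked of both libraries. Leaving out replicates or libraries gave 4237 to 5263 calls, 2 to 23 and 3 to 7 for the differences, -49.1 to -45.5 points for mitochondrial, 41.4 to 46.3 for protein-coding, 0.414 to 1.78 for nuclear rRNA and -48.6 to -43.8 for rRNA with mitochondrial genes, 1076 to 1979 detected genes, and 5275 to 5487 and 242 to 325 genes by ratio.

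Log2 values changed sign as follows, and the cause was not tested. With the labels as deposited, Rpl22 was 0.20, Mki67 -0.12, Scd1 0.68, Gm23935 0.38, Ppara 0.12 and Arid5b -0.025, and the difference from SMARTseq4 was 2.42 for mt-Nd2, 1.49 for mt-Nd4 and 0.15 for Rpl32. Scaled to the total, G6pc was 1.55, Rpl22 0.84, Gm23935 1.48, Selenop 0.0098, Sntb1 0.74, Ppara 1.45, A1cf 0.47 and the difference of mt-Nd4 0.036; without rRNA and mitochondrial genes in the total, G6pc was 0.46, Gm23935 0.42 and Ppara 0.39. With no filter G6pc was 0.015. Without single replicates or libraries, G6pc ran from -0.26 to 0.18, CT010467.1 from -0.16 to 1.76, Gm23935 from -0.38 to 0.20, Lars2 from -0.29 to 0.37, Ppara from -0.37 to 0.0066 and Dnase2a from -0.055 to 0.20. At 3 reads a library resolves no less than 0.394 CPM.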

Other observations

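Tnrc6b, a scaffold of microRNA-mediated repression on chromosome 15 (80711313 to 80941085), was singled out after its values were seen. It was at 139, 128 and 138 normalised CPM in the input libraries and 3005, 3467 and 3491 in the IP libraries, a level above that of Clec4f. Its log2 fold change was 4.62 ± 0.20 (adjusted p = 1.36e-08, edgeR) in NuGEN, 3.67 in TruSeq70 and 5.28 in SMARTseq4, and neither difference passed (0.87, adjusted p = 0.366, and -0.84, adjusted p = 0.0773). With the mouse as a block the second passed (-0.84, adjusted p = 0.0156).

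Processed pseudogenes, which are intronless copies of mRNAs, were lower in 155 (25.6%) and higher in 42 (6.94%) of 605 tested, beside 20.9% and 24% of all genes tested. Of the 374 that reached 1.85 CPM in every input library, 39.6% were lower and 3.74% higher. Over all 8789 genes that reached it there, 28.6% were lower and 19.8% higher. Reads of the parent genes cannot be told apart from theirs in these counts.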
